A study of Mus musculus with 3 samples.

Results

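The spots over the cerebral ventricles are described here. In the deposited table of spots, every spot whose brain region was given as LV (lateral ventricle) or D3V (dorsal part of the third ventricle) was taken, in all 3 sections. The rule found 57 of 8549 spots, 33 labelled LV and 24 labelled D3V. The CON section held 14 LV and 6 D3V spots, the RES section 9 and 9, and the SUS section 10 and 9. All 57 are described, and no filter removed any of them.

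The spatial transcriptomic (ST) data came from 3 coronal sections of the left hemisphere, 1 section from each of 3 groups of male C57BL/6J mice aged 8 weeks. RES and SUS mice were exposed to aggressive CD-1 mice for 10 days of chronic social defeat stress (CSDS), and were separated by a social interaction ratio above 1 (RES) or below 1 (SUS). CON mice met non-aggressive C57BL/6 mice and were housed behind the same kind of divider. Brains were taken 1.5 h after the last exposure and cut at 10 μm for Visium slides, which capture mRNA in spots on a hexagonal grid. The mice carried no transgene in the descriptions used here. Because each condition is 1 section, the section, the animal and the condition cannot be told apart, and no test was made: even an exact two-sided sign test over 3 sections cannot go below p = 0.25. The 95% intervals given with medians are order-statistic intervals and cover only the spread between spots of these sections. Spots that touch share tissue and are not independent, so the intervals are a guide to spread and not to the precision of a condition.

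The ventricles are cavities filled with cerebrospinal fluid and lined by ciliated ependymal cells. Tufts of choroid plexus, an epithelium wrapped around leaky capillaries, hang into them and secrete the fluid. At this level of the brain the lateral ventricle lies beside fiber tracts and the hippocampus, and the dorsal part of the third ventricle lies on the midline between the hippocampus and the thalamus. A spot over a ventricle can therefore hold ependyma, choroid plexus, vessels with red blood cells, bordering brain tissue, or an opening without tissue. The authors assigned anatomical regions from the stained image, an atlas and marker genes, but how the ventricle labels were set is not given in the text read here. Counts per gene were not analysed here, so the choroid plexus and ependymal markers could not be checked, and no sequence is printed because no gene carries a value. The labels were checked only by place and by neighbours.

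The following values describe a spot. The first is its number of unique molecular identifiers (UMIs, each a captured mRNA molecule), called its depth here. The second is its number of detected genes, and the third is genes divided by UMIs. The other values are percentages of transcripts from genes of mitochondria, of ribosomal proteins and of red blood cells, taken as deposited. These percentages rest on another total than the deposited UMIs, which are therefore not shown to be all transcripts of a spot: their product with the UMIs was whole, to a tolerance of 0.001, in 1 of the 57 ventricle spots for mitochondrial and in none for ribosomal protein or red blood cell transcripts above 0. The UMIs of all listed spots summed to between 31196847 and 37536349 per section. The section-wide median of the red blood cell percentage differed more between sections than depth did. It was 0.0154% in CON, 0.0714% in RES and 0.281% in the SUS section. Comparisons within a section, with own touching spots or at like depth therefore set ventricle spots against spots of their own section. Pooled differences and ratios of medians mix the spots of all sections on both sides, so differences between sections can enter them.

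The place of both labels on the slide was checked first. D3V spots sat at the medial edge of the listed area in every section, on grid rows 22 to 33, below the retrosplenial area (RSP, median rows 7 to 8) and above the hypothalamus (HY, median rows 57 to 64). LV spots lay 24 to 28 grid steps lateral to them. Of the 198 places around LV spots, 70 held another LV spot, 97 held fiber tracts (FB), which is 49.0% (exact interval 41.8 to 56.2), 5 held hippocampus (Hip) and 26 held no tissue. Of the 144 places around D3V spots, 56 held D3V, 29 thalamus (TH), 21 Hip, and 38 were covered by tissue but were not in the table. No LV spot touched TH and no D3V spot touched FB.

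**Figure D1:**
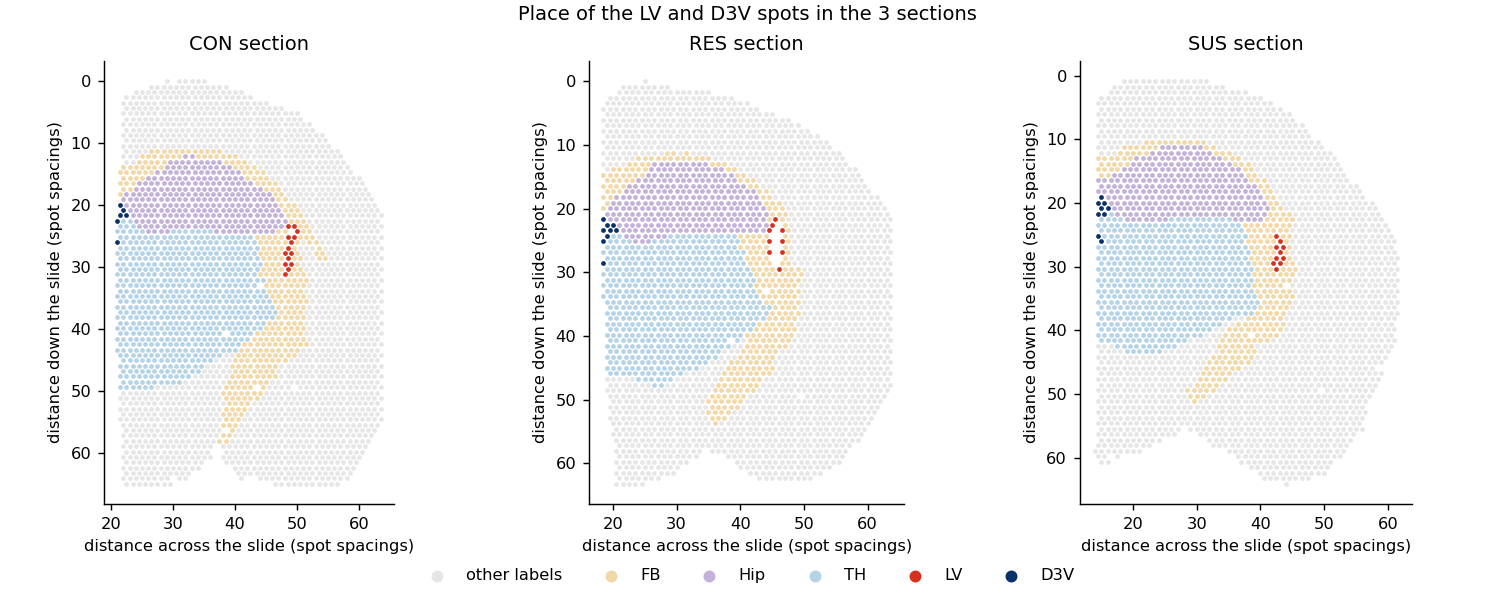
Each point is a listed spot of the CON, RES or SUS section, placed in units of spot spacing across and down the slide and coloured by its label. LV (red) runs as a lateral strip inside FB in all 3 sections and is broken up in RES, while D3V (dark blue) lies at the medial edge between Hip and TH.

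The shape of the labelled LV differed between the sections. In CON all 14 spots formed 1 connected patch and in SUS all 10 did, but in RES the 9 spots fell into 7 patches. In RES 6 of the 9 LV spots touched no other LV spot, and 21 of the 54 places around them were free of tissue (38.9%, 25.9 to 53.1). The corresponding numbers were 5 of 84 places in CON (5.95%, 1.96 to 13.3) and 0 of 60 in SUS (exact upper bound 5.96%). All 9 LV spots of RES, 5 of the 14 of CON and none of SUS touched a place without tissue. D3V had the same form in all 3 sections, an upper patch of 5, 8 and 7 spots and a separate lower patch of 1, 1 and 2 spots in CON, RES and SUS. No LV or D3V spot of one slide had the grid place of a member on another slide, although the slides share all 4992 barcoded places.

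Empty places could not be among the ventricle spots. Every listed spot was marked as covered by tissue, and the authors had removed spots of low depth. The ventricle spots made up 0.667% of the listed spots and carried 0.939% of the UMIs, 974094 in all (Poisson interval 972161 to 976030, counting error only). LV spots contributed 462644 UMIs and D3V spots 511450. The shallowest LV spot had 5264 UMIs and the shallowest D3V spot 6233, while the shallowest spot of the whole table had 188.

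LV spots were deeper than the spots that touched them. In CON, LV spots ran from 6317 to 23571 UMIs with a median of 15451.5, against 3421 to 22425 with a median of 7259 in the 25 touching spots. In RES they ran from 5264 to 27405 with a median of 8312, against 3611 to 31434 with a median of 6623 in 23 touching spots. In SUS they ran from 7955 to 23448 with a median of 10958.5, against 4177 to 14239 with a median of 8487.5 in 18 touching spots. The groups overlapped in every section, and the medians were higher in LV in 3 of 3 sections. The ratios of medians were 2.13 (0.837 to 3.65), 1.26 (0.669 to 5.10) and 1.29 (0.837 to 3.68), and 1.64 (1.07 to 2.98) over the 33 and 66 pooled spots. Set against its own touching spots, a LV spot was deeper in 29 of 33 cases, with a median ratio of 1.65 (1.23 to 2.06). This held for 14 of 14 spots in CON, 8 of 9 in RES and 7 of 10 in SUS.

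Most touching spots were FB, the shallowest labelled area in each section. Over the sections pooled, FB had a median of 4325.5 UMIs and was the lowest of 17 labelled areas, while LV ranked 10th from the highest with 11634. Against all spots outside the ventricles, the LV median was 1.20 times theirs in CON, 0.828 times in RES and 1.003 times in SUS, and each interval held 1. The FB spots that touched LV were themselves deeper than other FB spots, with a ratio of 1.79 (1.51 to 2.29) over 62 and 832 spots. Against the touching spots that were not FB, 4 Hip spots, the LV ratio was 2.42, higher than with FB. Those Hip spots lay in CON (2) and RES (2) only, while the LV median pooled all 3 sections, so the 2 sides differ in sections. The part of FB in the LV ratio was not tested beyond these values. By distance, median depth was lowest 2 steps from LV in CON (4888 UMIs) and RES (4888) and 3 steps from it in SUS (5700), and had returned to between 9981.5 and 11451 UMIs at 6 steps.

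D3V was the deepest labelled area in the RES and SUS sections but not in CON. D3V spots ran from 6233 to 30223 UMIs with a median of 12538.5 in CON, from 6590 to 33260 with a median of 20568 in RES, and from 14613 to 34702 with a median of 26238 in SUS. The next deepest areas had medians of 15497.5 in RES (PTL) and 16626 in SUS (SSp), and in CON D3V was 12th from the highest of 17 areas. Of the 24 D3V spots, 12 lay at or above the 95th percentile of depth of their own section, 2 of 6 in CON, 4 of 9 in RES and 6 of 9 in SUS. None was among the 20 deepest spots of its section. Against all spots outside the ventricles the ratio was 0.971 (0.471 to 2.42) in CON, 2.05 (1.40 to 3.35) in RES and 2.40 (1.40 to 3.13) in SUS.

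Against the spots that touched it, D3V depth depended on which neighbour was taken. The ratios to all touching spots were 0.955 (0.255 to 3.37) in CON, 1.80 (0.619 to 4.22) in RES and 1.37 (0.623 to 2.91) in SUS, and 1.61 (0.745 to 2.48) pooled. Against the 21 touching TH spots the ratio was below 1 in CON (0.684) and above 1 in RES (1.42) and SUS (1.10), every interval held 1, and the pooled ratio was 0.971 (0.579 to 2.19). The touching TH spots had a pooled median of 22569 UMIs. Their ratio to other TH spots was 1.66 (0.958 to 2.38) in CON, 1.38 (0.733 to 2.63) in RES and 1.92 (0.756 to 3.31) in SUS, each below the pooled 2.01 (1.10 to 2.29). Against the 14 touching Hip spots, with a median of 10370.5, it was 2.11 (1.07 to 3.58), and D3V was higher than Hip in 3 of 3 sections. A D3V spot was deeper than the median of its own touching spots in 14 of the 21 cases that had any.

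**Figure D2:**
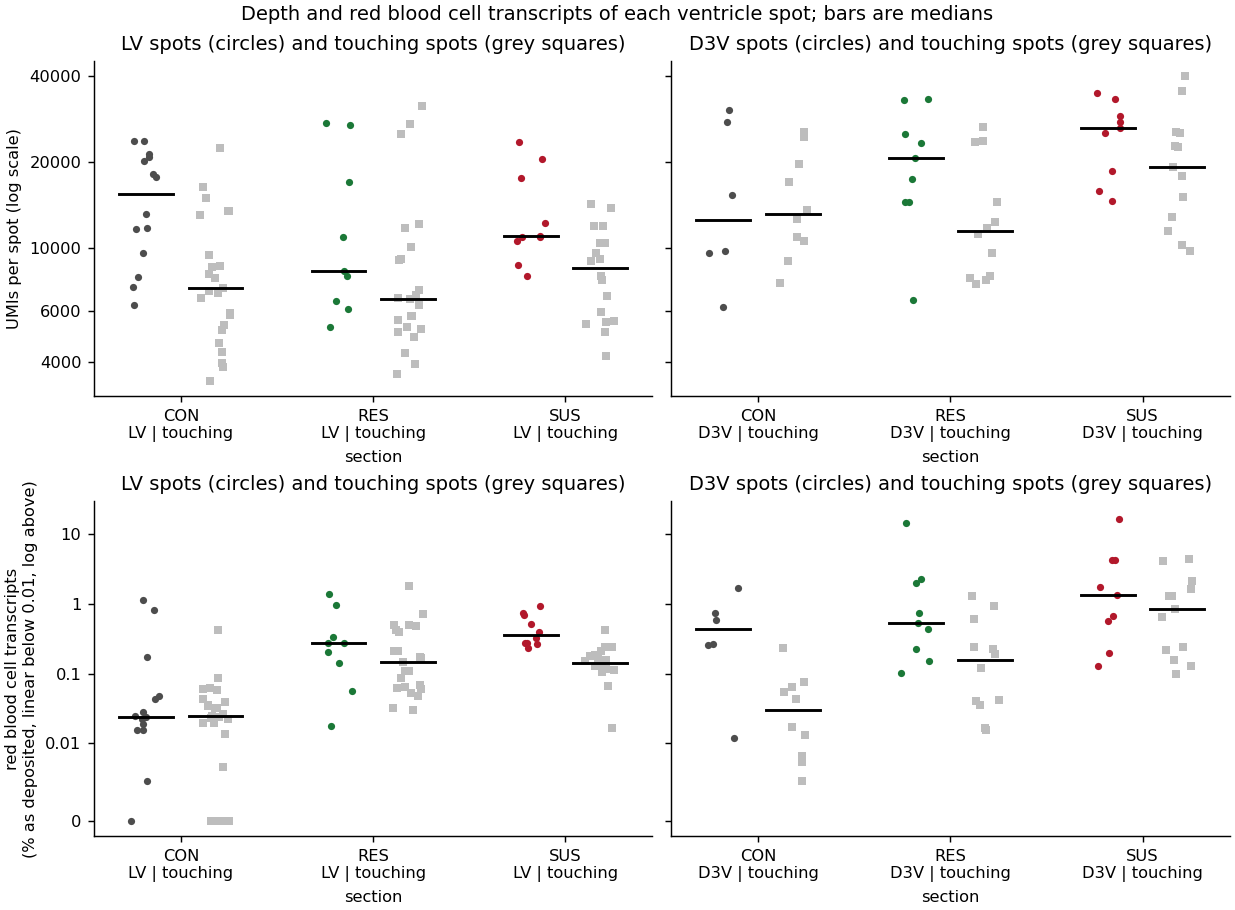
UMIs per spot (upper panels, log axis) and percentage of red blood cell transcripts (lower panels, linear below 0.01 and log above) for every LV and D3V spot (circles) and the spots that touch them (grey squares), by section, with medians as bars. The LV medians of depth stand above those of the touching spots in 3 of 3 sections, and the D3V medians of red blood cell transcripts do so in 3 of 3 sections, with wide overlap.

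The number of genes followed depth. LV spots had medians of 4938 genes in CON (3165 to 5927, lowest to highest), 3695 in RES (2437 to 6177) and 4389.5 in SUS (3659 to 6104). Those medians were 1.61, 1.30 and 1.27 times the medians of the touching spots, and 1.42 times (1.09 to 1.99) pooled. D3V spots had medians of 4706.5 (3132 to 6436), 5620 (3184 to 6922) and 6324 genes (5320 to 7780), which were 0.962, 1.32 and 1.08 times those of the touching spots and 1.16 times (0.883 to 1.50) pooled. D3V had the highest median of genes of the 17 areas in RES and SUS.

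Genes per UMI fall as depth rises, and they were low where the ventricle spots were deep. LV medians were 0.330, 0.435 and 0.374 in the CON, RES and SUS sections, against 0.423, 0.447 and 0.403 in touching spots, lower in 3 of 3 sections and 0.884 times (0.683 to 1.02) pooled. D3V medians were 0.376, 0.264 and 0.246, against 0.373, 0.382 and 0.305. In RES and SUS D3V had the lowest genes per UMI of the 17 areas.

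To compare genes at like depth, each ventricle spot was set against the spots of its own section, ventricles left out, within 10% of its UMIs. LV spots then had 0.975 times the genes of those spots (0.939 to 0.988), with 25 of 33 spots below. The section medians of this ratio were 0.971, 0.977 and 0.972 in CON, RES and SUS. D3V spots had 0.972 times the genes (0.943 to 1.02), with 15 of 24 below. With a window of 20% of the UMIs the LV value was 0.979, while that of D3V turned to 1.01.

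Mitochondrial transcripts were lower in LV than in most labelled areas. In CON, LV spots ran from 6.36% to 10.9% with a median of 7.67%, in RES from 4.68% to 8.64% with a median of 6.93%, and in SUS from 5.92% to 8.64% with a median of 6.49%. Spots outside the ventricles had medians of 10.5%, 9.66% and 8.05%. The differences were -2.81 (-3.82 to -1.24), -2.72 (-5.14 to -0.977) and -1.56 (-2.15 to -0.450) percentage points, so the interval lay below 0 in 3 of 3 sections. LV had 31 of 33 spots below the mitochondrial median of their section. By its median, LV ranked 2nd from the lowest of the 17 areas in CON, 3rd in RES and 7th in SUS. TEP (temporal association and perirhinal cortex) was lowest in CON (6.74%) and RES (5.60%). ENTl (entorhinal area) was lowest in SUS (5.15%).

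Spots of like depth also had more mitochondrial transcripts than LV. The median of the differences was -2.36 percentage points (-2.71 to -1.55), and 32 of 33 LV spots lay below the spots of like depth, 13 of 14 in CON, 9 of 9 in RES and 10 of 10 in SUS. The touching spots were low as well. LV was lower than they were by medians of -0.851, -1.06 and -0.375 percentage points in CON, RES and SUS, -0.486 (-1.69 to 0.241) pooled, with every interval across 0.

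D3V was close to LV in its mitochondrial median but not at like depth. D3V medians were 8.04% in CON (6.62 to 16.7, lowest to highest), 7.89% in RES (6.75 to 10.3) and 6.43% in SUS (5.10 to 7.99), and the pooled medians of LV and D3V were 7.39% and 7.38%. Against spots of like depth D3V showed a median difference of -0.0871 percentage points (-0.729 to 0.664), with 12 spots above and 12 below. Against all touching spots D3V was lower in 3 of 3 sections, by -1.74 (-4.15 to 0.885) pooled, with every section interval holding 0. Against touching Hip spots D3V was lower in 3 of 3 sections, by -4.06 (-9.53 to -1.22) pooled. These Hip spots were higher than other Hip spots in 3 of 3 sections, by 3.59, 3.36 and 1.69 percentage points in CON, RES and SUS, with a pooled difference of 2.56 (-0.0178 to 7.60). Against touching TH spots the pooled difference was 0.215 (-2.45 to 1.91). The TH spots that touched D3V were lower than other TH spots by -4.66 percentage points (-5.82 to -2.61). They were also deeper than other TH spots in 3 of 3 sections, and this comparison was not made at like depth.

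**Figure D3:**
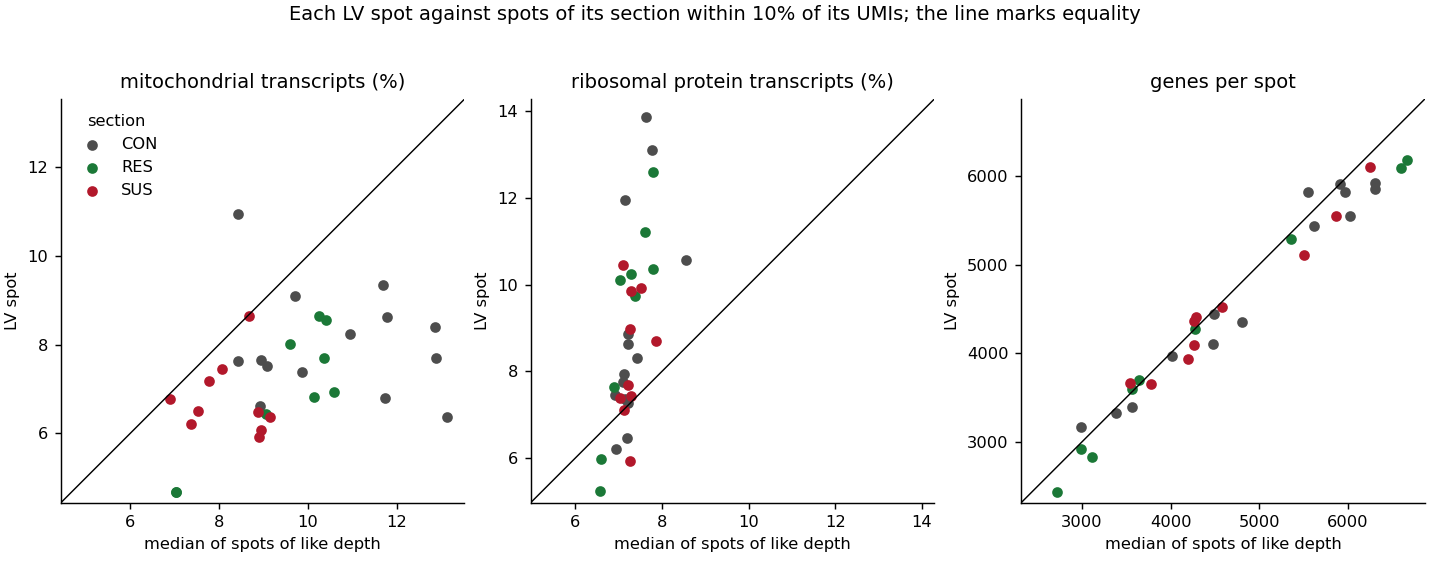
Each point is a LV spot, plotted against the median of the spots of its section within 10% of its UMIs, for mitochondrial transcripts (%), ribosomal protein transcripts (%) and genes per spot. In the mitochondrial panel 32 of 33 points lie below the line of equality, in the ribosomal panel 27 of 33 lie above it, and in the gene panel 25 of 33 lie below it by a small margin.

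Ribosomal protein transcripts, which encode the protein part of ribosomes, put LV between its FB border and the rest of the section. LV spots ran from 6.22% to 13.9% with a median of 8.12% in CON, from 5.24% to 12.6% with a median of 10.1% in RES, and from 5.94% to 10.5% with a median of 8.20% in SUS. Touching spots had medians of 10.7%, 10.2% and 10.7%, and FB had the highest median of all areas in every section. LV was lower than touching spots by medians of -2.59, -0.0480 and -2.51 percentage points, -1.94 (-3.51 to 0.109) pooled. Against spots outside the ventricles LV was higher by 0.626, 2.81 and 0.721 percentage points, each interval holding 0. Against spots of like depth LV was higher by 0.883 (0.485 to 2.39), with 27 of 33 spots above.

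Within LV, deep spots had few ribosomal protein transcripts. The rank correlation of UMIs with this percentage was -0.613 over the 14 spots of CON, -0.883 over the 9 of RES and -0.200 over the 10 of SUS, against -0.335, -0.398 and -0.309 over the spots outside the ventricles. These are descriptions over spots that share a library and their neighbours. A pair of RES spots stood apart. With 27405 and 26980 UMIs they were the deepest LV spots of the 3 sections, and they had 5.97% and 5.24% ribosomal protein transcripts and 4.68% mitochondrial transcripts each, the lowest mitochondrial values in LV. The other RES spots had between 5264 and 16939 UMIs. In CON the LV spots beside a place without tissue were shallower, with 6317 to 11705 UMIs (n = 5), than the others, with 9600 to 23571 (n = 9), and had a median of 11.95% against 7.76% ribosomal protein transcripts. Their depth ranges overlapped between 9600 and 11705 UMIs. In CON this percentage was also highest at the lateral side of the strip, with a rank correlation of 0.804 with the grid column (n = 14), against 0.293 in RES (n = 9) and 0.540 in SUS (n = 10).

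D3V had fewer ribosomal protein transcripts than the spots around it. Its medians were 7.60% in CON (6.05 to 8.41, lowest to highest), 6.42% in RES (5.83 to 7.66) and 6.80% in SUS (5.99 to 8.61). Touching spots had 8.55%, 7.83% and 7.75%, and the pooled difference was -1.19 percentage points (-2.29 to -0.245), lower in 3 of 3 sections. Each section interval held 0. The pooled difference was -1.80 (-2.73 to -0.357) against touching TH and -0.737 (-2.15 to 0.953) against touching Hip. In CON D3V was higher than touching Hip by 0.208, while it was lower in RES and SUS. At like depth it was -0.298 (-0.707 to 0.197). LV exceeded D3V by 1.82 percentage points (0.0572 to 3.63) pooled, and by 0.523, 3.69 and 1.40 in CON, RES and SUS. This was the measure besides red blood cell transcripts that ordered the 2 ventricles alike in 3 of 3 sections.

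**Figure D4:**
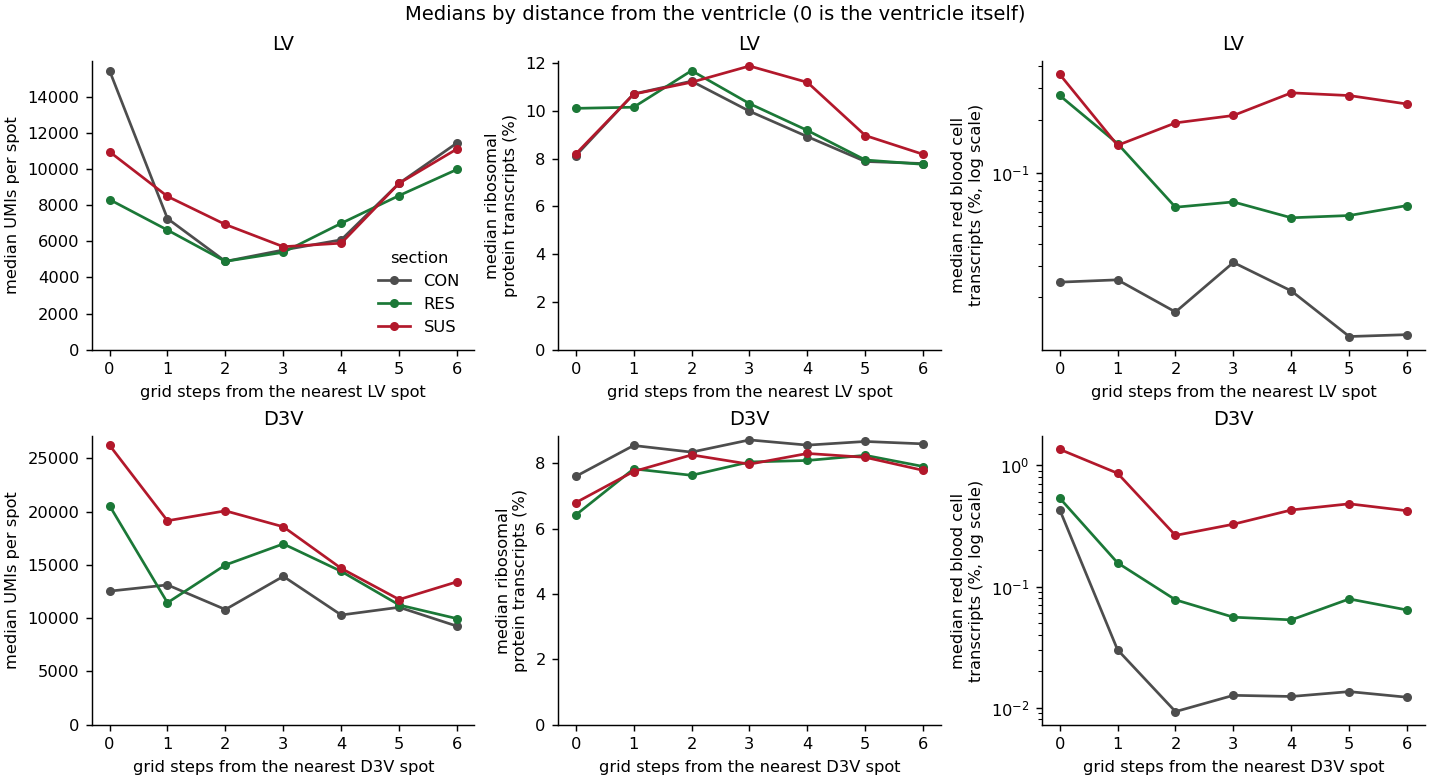
Median UMIs per spot, ribosomal protein transcripts (%) and red blood cell transcripts (%, log axis) against the number of grid steps from the nearest LV spot (upper panels) or D3V spot (lower panels), 1 line per section. Around LV depth dips at 2 to 3 steps where ribosomal protein transcripts peak at 11.2% to 11.9%, and around D3V the red blood cell median is highest at 0 steps in 3 of 3 sections.

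Red blood cell transcripts, which come mainly from globin genes and mark blood in the tissue, were most plentiful in D3V. D3V spots ran from 0.0120% to 1.71% with a median of 0.432% in CON, from 0.103% to 14.7% with a median of 0.538% in RES, and from 0.130% to 16.7% with a median of 1.36% in SUS. The touching spots had medians of 0.0301%, 0.157% and 0.860%. The differences were 0.402 (-0.0634 to 1.70), 0.381 (-0.462 to 2.24) and 0.496 (-1.95 to 4.10) percentage points, and 0.483 (0.0152 to 1.72) pooled. D3V had the highest median of the 17 areas in each of the 3 sections. The next areas were LV in CON (0.0243%) and RES (0.274%) and the dentate gyrus (DG) in SUS (0.486%).

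Counted over spots, more D3V spots than others were high. Of the 24 D3V spots, 9 exceeded 1% (37.5%, exact interval 18.8 to 59.4), against 672 of 8492 spots outside the ventricles (7.91%, 7.35 to 8.51). By section these were 1 of 6, 3 of 9 and 5 of 9, against 1.64%, 4.34% and 17.8% of the other spots. At like depth D3V was higher by 0.564 percentage points (0.251 to 1.69), with 21 of 24 spots above. Against its own touching spots a D3V spot was higher in 6 of 6 cases in CON, 7 of 8 in RES and 4 of 7 in SUS. The border differed by side. Touching TH spots had a pooled median of 0.0991%, which D3V exceeded by 0.541 (0.0369 to 1.74), and touching Hip spots had 0.738%, from which D3V differed by -0.0984 (-1.41 to 1.72). The direction against Hip turned by section, at 0.398 in CON and at -0.0784 and -0.308 in RES and SUS. Hip spots touching D3V had higher medians than other Hip spots in 3 of 3 sections, 0.0342% against 0.0180% in CON, 0.616% against 0.0870% in RES and 1.66% against 0.414% in SUS.

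Within D3V the red blood cell percentage was graded from top to bottom. In every section the uppermost D3V spot had the highest value, 1.71% in CON, 14.7% in RES and 16.7% in SUS. It also had the lowest depth of its D3V, with 6233, 6590 and 14613 UMIs. These spots ranked 24th, 2nd and 4th of all spots of their sections in red blood cell percentage. The other D3V spots ran from 0.0120% to 0.753%, from 0.103% to 2.28% and from 0.130% to 4.26%. The rank correlation of grid row with the percentage was -0.986 (n = 6), -0.664 (n = 9) and -0.869 (n = 9).

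The lower patch of D3V lay below the D3V median in red blood cell transcripts and above the upper patch median in ribosomal protein transcripts. Its spots had 0.0120% in CON, 0.154% in RES, and 0.130% and 0.196% in SUS, each below the median of its own D3V. Its ribosomal protein percentages were 7.81% in CON, 7.66% in RES and 8.61% and 8.42% in SUS, against upper patch medians of 7.39%, 6.18% and 6.71%. In RES and SUS these lay above every upper patch spot, while in CON the value fell within the upper patch range of 6.05% to 8.41%. The red blood cell value of RES also fell within its upper patch range, 0.103% to 14.7%. The uppermost spot of CON had 16.7% mitochondrial transcripts, above the 6.62% to 13.2% of the other D3V spots there, while those of RES (8.80%) and SUS (6.50%) lay within the range of their D3V.

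**Figure D5:**
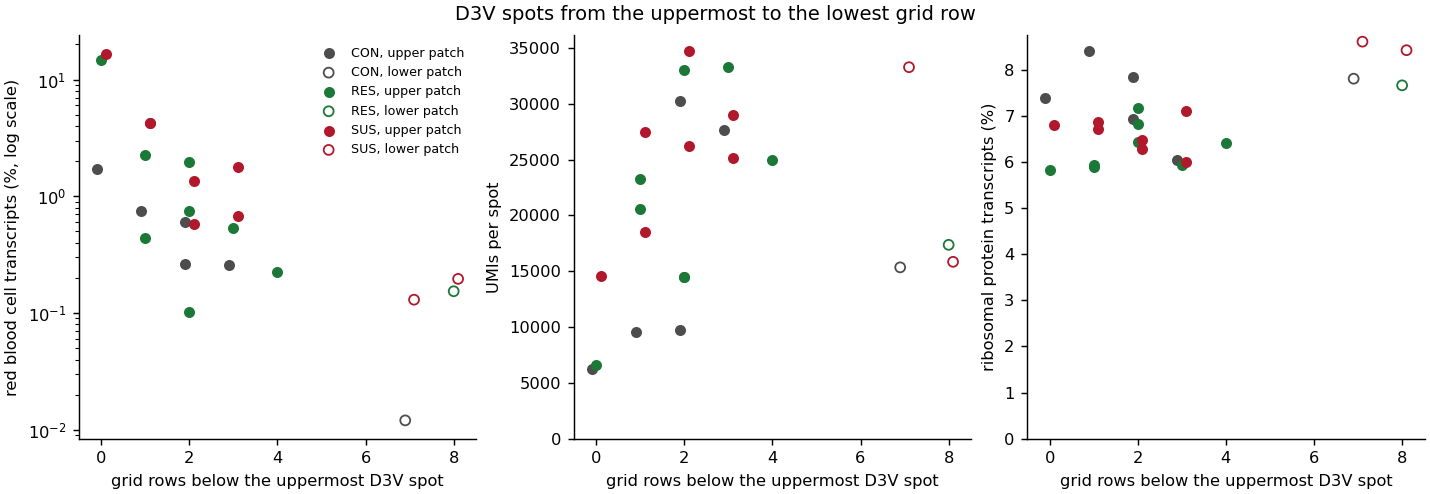
D3V spots of the 3 sections by grid rows below the uppermost D3V spot, for red blood cell transcripts (%, log axis), UMIs per spot and ribosomal protein transcripts (%), with filled points for the upper patch and open points for the lower patch. The uppermost spot has the highest red blood cell percentage (1.71% to 16.7%) and the lowest depth of its section's D3V in 3 of 3 sections, and the lower patch spots held 0.0120% to 0.196% red blood cell transcripts.

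LV held fewer red blood cell transcripts than D3V. LV spots ran from 0 to 1.15% with a median of 0.0243% in CON, from 0.0176% to 1.40% with a median of 0.274% in RES, and from 0.238% to 0.945% with a median of 0.360% in SUS. The medians lay below those of D3V in 3 of 3 sections, by -0.408, -0.264 and -0.996 percentage points. Against touching spots the differences were -0.000748 (-0.0197 to 0.154) in CON, 0.127 (-0.342 to 0.916) in RES and 0.217 (0.0796 to 0.637) in SUS. In SUS all 10 LV spots exceeded the median of their own touching spots, as did 6 of 9 in RES and 7 of 14 in CON. All 18 touching spots of SUS were FB, the area with the lowest red blood cell median of that section (0.204%). Of the 10 LV spots of SUS, 6 lay at or above the median of their section. The part of FB in the SUS difference was not tested. Of the 33 LV spots 2 exceeded 1% (6.06%, 0.743 to 20.2), against 7.91% of spots outside the ventricles. By section these were 1 of 14 against 1.64% in CON, 1 of 9 against 4.34% in RES and 0 of 10 against 17.8% in SUS. At like depth LV was higher by 0.0388 percentage points (0.00203 to 0.184), with 25 of 33 spots above, and its median lay above that of spots outside the ventricles in 3 of 3 sections, with every interval holding 0. LV ranked 2nd of the 17 areas in CON and RES and 5th in SUS. In CON a neighbouring pair of LV spots held 1.15% and 0.835%, and the other 12 stood at or below 0.174%.

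The 3 sections were set side by side without a test. LV depth in RES was 0.538 times (0.288 to 3.42) and in SUS 0.709 times (0.411 to 2.59) that in CON, and D3V depth was 1.64 times (0.479 to 5.30) and 2.09 times (0.524 to 5.34). Red blood cell transcripts in LV were higher than in CON by 0.249 (-0.117 to 0.964) in RES and 0.336 (0.0937 to 0.739) in SUS. The interval of the SUS value lay above 0, and the section-wide median of SUS was also above that of CON, at 0.281% against 0.0154%. The corresponding D3V differences were 0.106 (-1.55 to 2.26) and 0.924 (-1.51 to 4.25). The part of the section-wide blood content in these values was not tested, and with 1 section each these are differences between sections and not between conditions.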

How the data were processed

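The authors processed Visium reads with ST Pipeline on mm10 and Seurat, removing genes with fewer than 10 reads or in fewer than 2 spots and spots below 200 UMIs (the lowest listed spot has 188). The submitters' processing notes name bcl2fastq, cutadapt and Space Ranger 1.0.0. The deposited table holds the count of UMIs and of genes per spot, not normalized. It also holds the percent of mitochondrial, ribosomal protein and red blood cell transcripts calculated by the authors, on a total other than these UMIs that, like the gene lists, was not stated in the sources read. The image scale factors were left unused, and no gene is named with a value because counts per gene were not analysed here.

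LV and D3V spots were joined by section and barcode to the deposited position lists. Touching spots are the listed spots on the 6 nearest grid places without a ventricle label. Ratios of medians (UMIs, genes, genes per UMI) and differences of medians (percentages, in percentage points) have bounds combined from the 95% order-statistic intervals of both medians. Intervals need at least 6 spots. Shares have Clopper-Pearson intervals, which cover counting error only. Spots of like depth had UMIs within 10% of the member. Scripts were tested on simulated data. The members were chosen with earlier results of these data known. Alternatives were mean for median, a minimum of 1000 UMIs, own neighbours, 2 grid steps, no FB, equal weight of sections, division by section median, patches of at least 3 spots, members with all neighbours listed, a 20% window of depth and each section left out. The percentage outside red blood cell genes and the removal of the uppermost D3V spot were added after seeing the data. The scripts ran in Python 3.11.15 with scipy 1.17.1, pandas 2.3.3, numpy 2.4.6 and, for plots, matplotlib 3.10.9.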

Additional observations from a re-analysis of the deposited data

Results flagged for a closer look

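In 4 comparisons with touching spots the CON section differed in direction from the RES and SUS sections. The red blood cell percentage of LV differed from touching spots by -0.000748 percentage points in CON, against 0.127 in RES and 0.217 in SUS. The CON value was close to a tie, with 7 of 14 LV spots above the median of their own touching spots and 7 below. Against touching FB spots alone the CON difference was 0.000666. The UMIs per spot of D3V were 0.955 times those of touching spots in CON, against 1.80 and 1.37. The genes per spot of D3V were 0.962 times, against 1.32 and 1.08, and the genes per UMI were 1.01 times, against 0.690 and 0.807. With 1 section each, the difference between the sections was not tested. All of these intervals except that of LV in SUS held no difference.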

How the results depend on the processing

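Over 20 results, 214 alternative values were computed, and 212 of them stayed within the interval of the value reported. The other 2 moved outside it. Without the FB spots, only the few touching Hip spots of CON and RES are left beside LV. The mitochondrial difference of the LV spots of all sections was then -4.76 percentage points in place of -0.486. With means in place of medians, LV differed from D3V in red blood cell percentage by -1.95 in place of -0.402, as the uppermost D3V spots enter the mean. Values within their intervals also turned direction or moved by over 1.5 times. Without the SUS section the pooled LV difference in red blood cell percentage turned to -0.00786 from 0.160. The LV against D3V mitochondrial difference, near 0, ran from -0.614 (means) to 0.765 (members with all neighbours listed), and LV exceeded D3V in ribosomal protein percentage by 1.20 without RES in place of 1.82. The D3V gene ratio at like depth turned to 1.01 with a 20% window. The LV red blood cell difference was 0.0280 relative to section medians and 0.0721 against own touching spots. That of D3V was 1.66 with means in place of 0.483. The D3V mitochondrial difference was -0.252 against own touching spots in place of -1.74, and that of LV ran from -0.212 (relative to section medians) to -0.860 (own touching spots). The LV depth ratio was 2.47 for members with all neighbours listed. Leaving out FB could not be done for D3V, which touches none. No paired analysis was possible between conditions because each condition has 1 section and the labels give no shared replicate numbers. Every ventricle spot held at least 5264 UMIs.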
